A study of Homo sapiens with 12 samples.

Results

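The genes described here belong to families best known for splicing factors, the proteins that recognise exons and introns in new transcripts and help join the exons. Some RBM members have other roles and are counted apart. They were taken by symbol from a table of gene counts: the SRSF genes, the HNRNP genes, the SF3A and SF3B genes, the RBM genes, and ESRP1 and ESRP2, without symbols of pseudogene form and with at least 120 counts summed over the 12 libraries. The rule gave 77 of the 56269 symbols in the table. By role they fall into 12 SR protein genes, 21 hnRNP genes, 9 SF3A and SF3B genes, 16 RBM genes with a described role in splicing, 17 other RBM genes and the 2 ESRP genes. Just inside the minimum were SRSF12 with 125 counts, RBM20 with 140 and HNRNPA1L2 with 232. Just outside it were RBM44 with 116 counts and RBM34 with 99, followed by RBM8B with 56 and RBM11 with 40, and RBM46 and HNRNPCL1 to HNRNPCL4 had none. The rule used no other property of the data, but it was set with earlier results of these data known.

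The cells were C4-2, a castration-resistant prostate cancer line that descends from LNCaP. They received either a nonspecific siRNA or an siRNA against paxillin, a focal adhesion adaptor encoded by PXN, for 48 h and were then starved of serum for 12 h. Each was followed by 24 h with the ethanol vehicle or with 2.5 nM dihydrotestosterone (DHT), the androgen that activates the androgen receptor. The 4 groups, nonspecific vehicle, nonspecific DHT, paxillin vehicle and paxillin DHT, hold 3 polyA-selected RNA libraries each. All groups were therefore transfected and serum-starved, and all come from 1 cell line.

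SR proteins bind exonic enhancers through RNA recognition motifs and use domains rich in arginine and serine to recruit the spliceosome to nearby splice sites. The hnRNP proteins coat new transcripts and often oppose SR proteins, so that the balance of both sets exon inclusion. SF3A and SF3B are protein subcomplexes of the U2 snRNP, which recognises the intron branch point. RBM proteins share an RNA recognition motif and are otherwise diverse, and ESRP1 and ESRP2 direct the exon choices typical of epithelial cells. A count per gene measures the amount of each factor's messenger RNA. It does not measure splicing, protein amount, or the phosphorylation through which SR proteins are controlled.

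Totals ran from 11944906 counts in nonspecific vehicle replicate 1 to 32040465 in paxillin DHT replicate 1, and the share of mitochondrial counts from 3.17 to 5.62%. PXN stood at 121 to 151 CPM (depth-scaled counts, here on library totals adjusted by TMM) with the nonspecific siRNA and at 9.36 to 16.7 CPM with the paxillin siRNA. All 10 luminal prostate cancer markers were detected in each group, and their summed level was 7010 to 8894 CPM in vehicle and 16245 to 17898 CPM in DHT. All 6 immune and all 4 basal markers stayed under 1 CPM, with CD3E at 0, as did 4 of 5 endothelial and 3 of 6 fibroblast markers. The exceptions included VWF at 8.30 to 15.0 CPM and COL1A1 at 24.8 to 47.6 CPM.

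The promoters of 4 members that rose with DHT under both siRNAs and have a single RefSeq promoter each are shown as examples. HNRNPAB, RBM15B, RBM33, SRSF4 and SRSF12 also meet both conditions and are not shown. Each run is the 250 bases before the RefSeq start on GRCh38.p14, 5′ to 3′ on the gene's strand, with matches to 4 searched motifs in capitals.
RBM24, chr6:17281814-17282063, plus strand: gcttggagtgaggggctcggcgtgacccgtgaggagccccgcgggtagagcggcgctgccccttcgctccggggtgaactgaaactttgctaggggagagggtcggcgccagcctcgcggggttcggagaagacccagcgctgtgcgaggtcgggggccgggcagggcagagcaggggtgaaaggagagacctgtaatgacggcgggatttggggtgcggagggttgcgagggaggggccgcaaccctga
SF3B2, chr11:66052114-66052363, plus strand: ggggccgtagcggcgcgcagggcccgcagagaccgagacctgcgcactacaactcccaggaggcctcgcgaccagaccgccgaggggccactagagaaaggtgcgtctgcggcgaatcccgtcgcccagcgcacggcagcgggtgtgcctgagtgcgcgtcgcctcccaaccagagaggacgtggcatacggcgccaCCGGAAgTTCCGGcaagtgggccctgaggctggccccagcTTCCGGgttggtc
SF3B5, chr6:144095574-144095823, minus strand: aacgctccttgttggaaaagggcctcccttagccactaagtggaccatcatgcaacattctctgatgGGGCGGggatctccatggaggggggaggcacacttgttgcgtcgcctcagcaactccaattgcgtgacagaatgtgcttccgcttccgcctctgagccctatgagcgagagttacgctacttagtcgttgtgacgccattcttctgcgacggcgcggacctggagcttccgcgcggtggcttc
RBM12, chr20:35664901-35665150, minus strand: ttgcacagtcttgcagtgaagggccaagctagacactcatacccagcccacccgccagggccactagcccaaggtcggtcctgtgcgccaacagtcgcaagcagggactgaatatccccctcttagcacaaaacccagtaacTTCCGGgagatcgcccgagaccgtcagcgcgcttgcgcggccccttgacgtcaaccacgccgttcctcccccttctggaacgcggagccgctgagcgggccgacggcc

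The motifs, searched on both strands, were the androgen receptor half-site AGAACA, the E-box CACGTG, the ETS core CCGGAA and the GC box GGGCGG. The E-box reads the same on both strands, and the ends of different motifs can share letters. The SF3B2 window holds 3 ETS cores, the RBM12 window 1 ETS core and the SF3B5 window 1 GC box, and the RBM24 window holds none of the 4 motifs. The RefSeq start can differ from that of the gene spans given below. The RBM24 and SF3B2 windows lie inside those spans, which begin at 17281346 and 66050729, and the RBM12 window lies partly inside. Bases before those 2 outer starts were not searched for RBM24 and SF3B2. RefSeq promoters were matched for 68 of the 77 members, which gave 87 windows. The half-site AGAACA occurred in 11.5% of the members' windows and in 12.4% of all 35116 promoters of the same length. It occurred in 0 of 15 windows of the 11 matched members that rose with DHT under both siRNAs. The ETS core CCGGAA occurred in 27.6% of the members' windows against 14.5% of all promoters, and in 6 of those 15. The E-box occurred in 13.8% against 6.3%, and in 1 of the 15, and the GC box in 59.8% against 42.6%, and in 11 of the 15. These shares describe letters in a window and say nothing of binding.

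Levels per length spanned more than 3 orders of magnitude among the members. In RPKM (CPM per kilobase of annotated exon), averaged over the 12 libraries, SF3B5 was highest at 161, followed by HNRNPK at 146, HNRNPF at 138 and HNRNPA1 at 119. SF3B5 encodes a small subunit of SF3B, and HNRNPK encodes an abundant poly(C)-binding protein. The length counts every annotated exon of a gene, used or not, so orders and medians in RPKM depend on it. RBM39, at 197 CPM over 11936 bases, had 16.5 RPKM, and RBM42, at 71.3 CPM over 2206 bases, had 32.3. Likewise SF3B3 had 214 CPM over 12419 bases and SF3B5 112 CPM over 693. Which exons the cells used was not tested. The SF3A and SF3B genes had the highest median, 31.3 RPKM, and ran from SF3B3 at 17.2 and SF3A3 at 24.5 to SF3B6 at 53.8 and SF3B5. SR protein genes had a median of 23.1 RPKM and ran from SRSF12 at 0.088 and SRSF10 at 5.55 to SRSF1 at 49.5 and SRSF9 at 59.3. The hnRNP genes had a median of 22.4 RPKM, and their lowest members were HNRNPA1L2 at 0.566 and HNRNPLL at 5.32. Among RBM genes with a splicing role the median was 8.56 RPKM, with RBM20 at 0.054 and RBM4 at 1.16 lowest and RBM10 at 31.7 and RBM42 at 32.3 highest. The other RBM genes had a median of 4.32 RPKM, from RBM43 at 0.352 and RBM27 at 0.965 to RBM15B at 30.1 and RBM3 at 46.6, the last a cold-induced RNA-binding protein. ESRP1 at 18.2 and ESRP2 at 21.5 RPKM stood at like levels.

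**Figure D1:**
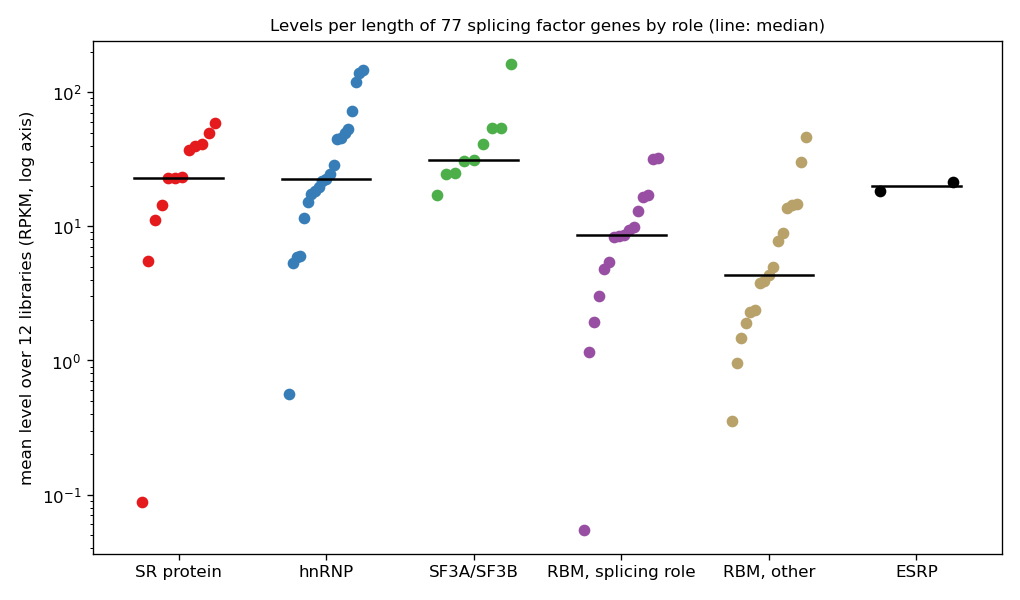
Mean level of each of the 77 splicing factor genes over the 12 libraries in RPKM on a log axis, by role, with a line at the median of each role. SF3B5, HNRNPK and HNRNPF lie above 100 RPKM, whereas RBM20 and SRSF12 lie below 0.1 RPKM.

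All 77 members passed the filter on low counts, and 66 had a mean of at least 20 CPM. With the nonspecific siRNA, DHT raised 17 members and lowered 8 at an edgeR adjusted p under 0.05. Among all 16115 tested genes the shares were 21.6% raised and 18.9% lowered (40.5% in either direction), against 22.1% and 10.4% of the members. With the paxillin siRNA, DHT raised 17 members and lowered 2, that is 22.1% and 2.60%, beside 20.1% and 17.9% of all tested genes (38% in either direction). Well expressed genes were called more often. Of the 66 members at 20 CPM or more, 16 rose and 6 fell with the nonspecific siRNA, where 34.5% and 16.8% of the tested genes at that level did (51.3% in either direction). With the paxillin siRNA 15 of the 66 rose and 0 fell, where 31.7% and 15.1% did (46.8%). The counts of members that fell with DHT rested in part on single libraries: the 8 went to 5 without nonspecific DHT replicate 1 or 2, and the 2 to 1 when paxillin DHT replicate 1 or paxillin vehicle replicate 2 or 3 was left out, and to 0 without paxillin DHT replicate 3. So did the counts of members that rose. The 17 with the nonspecific siRNA went to 12 without nonspecific DHT replicate 1. The 17 with the paxillin siRNA went to 12 without paxillin vehicle replicate 1. Which members passed depended on the scaling, and upper-quartile scaling gave 11 members up and 16 down with the nonspecific siRNA and 10 up and 9 down with the paxillin siRNA. The upward share of the called members thereby went from 68% to 40.7% and from 89.5% to 52.6%. That of all called genes moved the same way, from 53.3% to 41% and from 52.8% to 36.5%, with the median log2 change of all tested genes shifted by -0.07 and -0.09 from that under TMM, and no called member changed direction. As a share of unscaled counts, the members together held 1.03 to 1.08% in nonspecific vehicle and 0.978 to 0.997% in nonspecific DHT, and 1.03 to 1.04% and 0.970 to 1.01% in the 2 paxillin groups.

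Most differences were small. The members' median log2 fold change with DHT was 0.02 under the nonspecific and 0.06 under the paxillin siRNA, where that of all tested genes was -0.01 in both. The median size of the log2 change, whatever its sign, was 0.13 and 0.12 for the members and 0.27 and 0.25 for all tested genes. Of the 66 members at 20 CPM or more, 90.9% and 95.5% changed by less than 1.25-fold, beside 70.1% and 74.3% of all tested genes at that level. A change above 1.5-fold passed the test in 3 members up and 0 down with the nonspecific siRNA and in 4 up and 1 down with the paxillin siRNA. Among all tested genes 6.99% rose and 9.66% fell by that much in the first case, and 6.49% and 9.44% in the second. With DHT the groups did not overlap in 23 members higher and 13 lower under the nonspecific siRNA, where 26.3% and 24% of all tested genes were so placed. Under the paxillin siRNA the counts were 25 and 6, beside 25.3% and 23.3%.

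**Figure D2:**
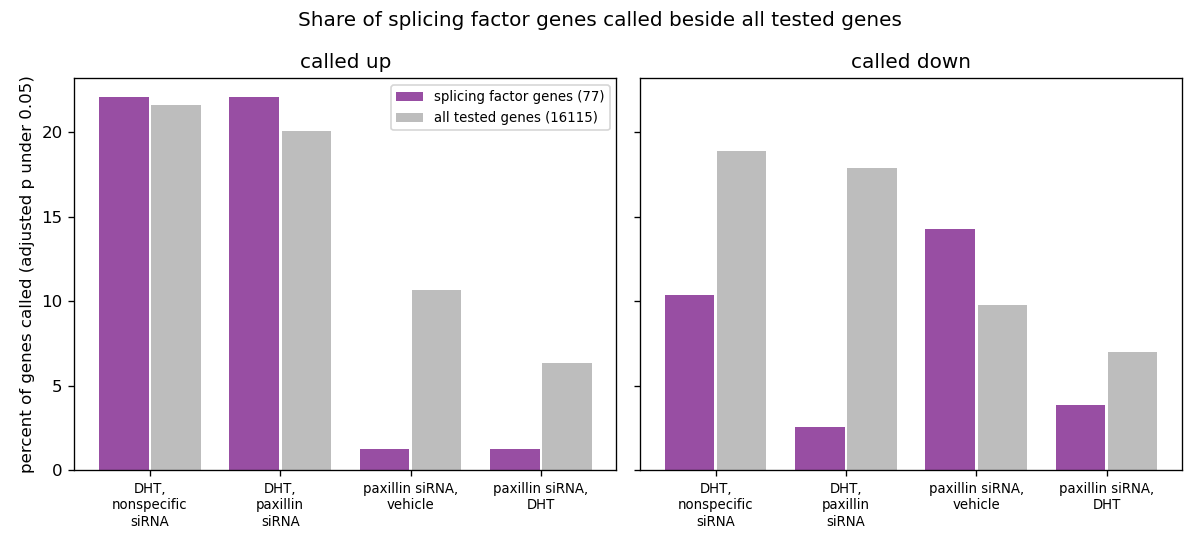
Percent of the 77 splicing factor genes (purple) and of all 16115 tested genes (grey) called higher or lower at an adjusted p under 0.05 with TMM scaling, in 4 comparisons. Under DHT the shares called up are near each other, and the members' shares called down are the lower ones.

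ESRP2 showed a clear DHT response among the epithelial splicing regulators and was also lower with the paxillin siRNA. It lies on GRCh38 at chr16:68229111-68238102, and its exons share 149 bases with NFATC3 on the opposite strand. Its level was 108, 91.5 and 93.4 CPM in nonspecific vehicle and 170, 165 and 168 CPM in nonspecific DHT. It was 87.5, 79.5 and 75.2 CPM in paxillin vehicle and 142, 122 and 130 CPM in paxillin DHT. The DHT and vehicle libraries did not overlap under either siRNA, and each paxillin group lay below its nonspecific counterpart. DHT raised ESRP2 1.72-fold with the nonspecific siRNA (log2 fold change 0.79, SE 0.07, n = 3 per group, edgeR adjusted p = 1.6e-07) and 1.63-fold with the paxillin siRNA (0.70, SE 0.07, adjusted p = 6.3e-07). In bulk libraries, fewer cells of a type and less RNA per cell cannot be told apart.

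The paxillin siRNA lowered ESRP2 by 0.27 on the log2 scale in vehicle (SE 0.08, edgeR adjusted p = 0.018) and by 0.35 in DHT (SE 0.07, adjusted p = 0.0041). The call in vehicle was lost without nonspecific vehicle replicate 1 (-0.19, adjusted p = 0.086), paxillin vehicle replicate 2 (adjusted p = 0.071) or paxillin vehicle replicate 3 (adjusted p = 0.11), and the call in DHT held without any 1 library. ESRP1, its paralog, did not follow with DHT. It stood at 98.6, 103 and 103 CPM in nonspecific vehicle, 90.6, 90.4 and 96.1 in nonspecific DHT, 84.3, 79.6 and 71.6 in paxillin vehicle and 85.6, 79.7 and 83.9 in paxillin DHT. Its log2 differences with DHT were -0.14 (adjusted p = 0.10) and 0.08 (adjusted p = 0.34). The paxillin siRNA lowered ESRP1 by 0.37 in vehicle (SE 0.06, adjusted p = 0.00066), and the difference in DHT was -0.15 (adjusted p = 0.12). The ratio of ESRP2 to ESRP1 in CPM was 0.96 ± 0.11 (SD, n = 3) in nonspecific vehicle, 1.82 ± 0.07 in nonspecific DHT, 1.03 ± 0.03 in paxillin vehicle and 1.58 ± 0.07 in paxillin DHT.

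**Figure D3:**
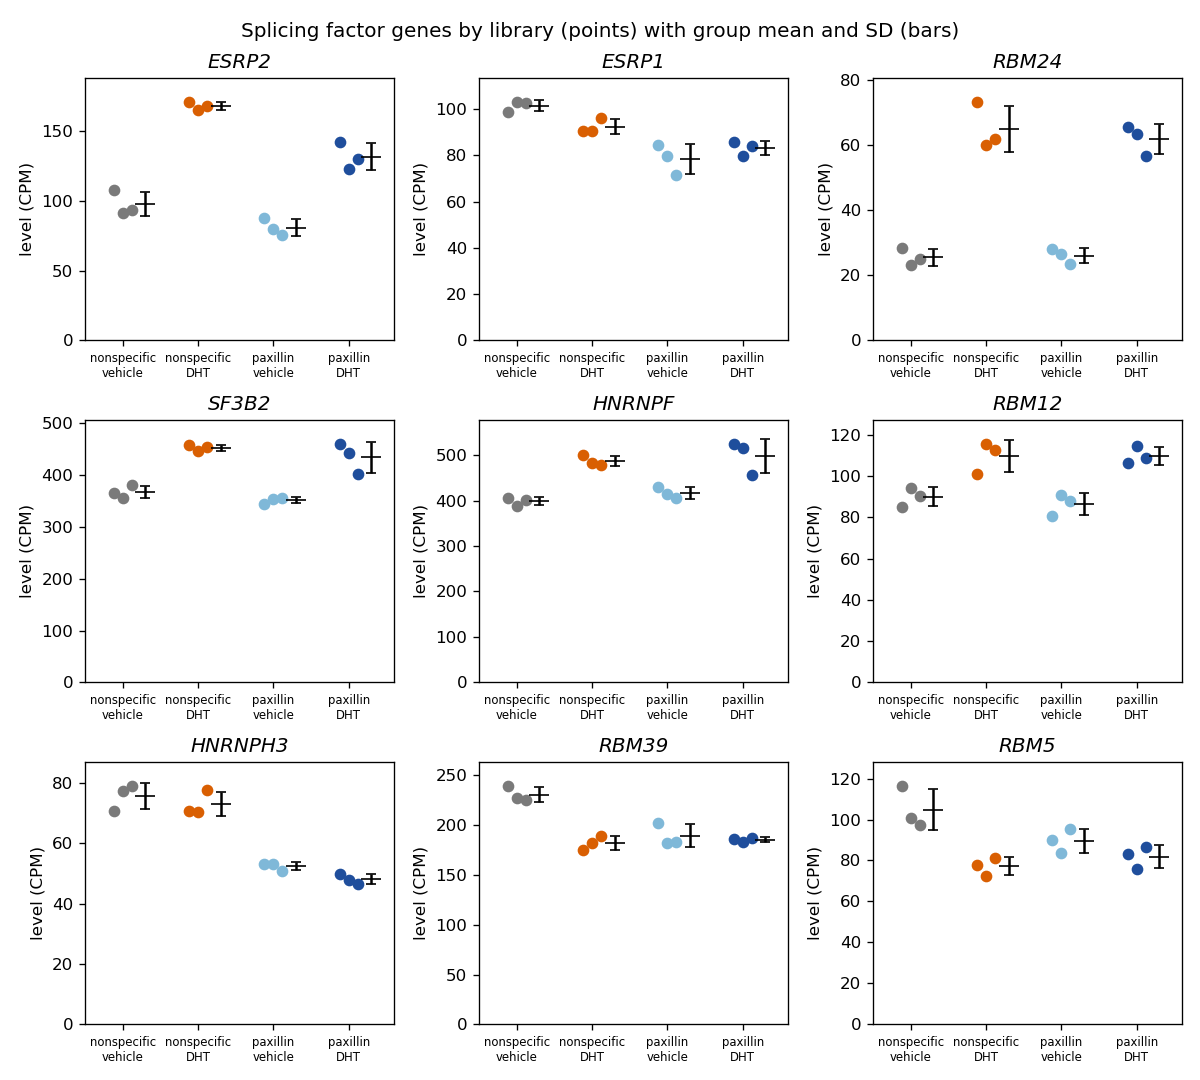
Level in CPM of 9 splicing factor genes in each of the 12 libraries (points, by group), with the group mean and SD as black bars. ESRP2, RBM24, SF3B2, HNRNPF and RBM12 are higher in DHT under both siRNAs, HNRNPH3 and ESRP1 are lower in both paxillin groups than with the nonspecific siRNA, and RBM39 and RBM5 are highest in nonspecific vehicle.

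Among the 12 SR protein genes, DHT raised 3 and lowered 1 with the nonspecific siRNA. It raised 3 and lowered 0 with the paxillin siRNA, and the paxillin siRNA changed none in either treatment. Among all tested genes DHT raised 21.6% and lowered 18.9% with the nonspecific siRNA, and 20.1% and 17.9% with the paxillin siRNA. The paxillin siRNA changed 20.5% of them in vehicle and 13.3% in DHT. The counts of the other roles below stand beside the same shares. SRSF12, a repressor-type SR protein, had the largest fitted fold with DHT of all members, under both siRNAs, and the smallest total count. Its counts were 1, 3 and 2 in nonspecific vehicle and 11, 21 and 38 in nonspecific DHT, and 7, 2 and 3 in paxillin vehicle and 18, 7 and 12 in paxillin DHT. The DHT libraries were above the vehicle libraries with the nonspecific siRNA, and with the paxillin siRNA the lowest DHT library equalled the highest vehicle library in counts. The ratio of summed counts, on scaled totals, was 10.3 (95% interval 4.52 to 29.1, exact conditional binomial, counting error only) with the nonspecific and 3.23 (1.65 to 6.79) with the paxillin siRNA. The fitted log2 fold changes, 3.29 (SE 0.59, adjusted p = 0.00024) and 1.65 (SE 0.56, adjusted p = 0.026), rest on these few counts. The second call was lost without paxillin vehicle replicate 2 (adjusted p = 0.11) or 3 (0.083) and without paxillin DHT replicate 1 (0.12) or 3 (0.055).

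SRSF4, a large SR protein, was the other SR gene that rose under both siRNAs. Its levels were 103, 91.5 and 88.5 CPM in nonspecific vehicle and 119, 108 and 106 in nonspecific DHT, then 87.8, 85.3 and 84.1 in paxillin vehicle and 108, 97.4 and 101 in paxillin DHT. The log2 changes were 0.24 (SE 0.07, adjusted p = 0.010) and 0.26 (SE 0.07, adjusted p = 0.0062). SRSF8 rose with the paxillin siRNA, from 139, 135 and 129 CPM to 172, 169 and 160 CPM (0.31, SE 0.06, adjusted p = 0.00026). With the nonspecific siRNA it went from 147, 136 and 137 to 153, 151 and 155 CPM (0.13, adjusted p = 0.082). SRSF9 rose by 0.18 (adjusted p = 0.025) and SRSF3, which regulates its own transcript through a poison exon, fell by 0.19 (adjusted p = 0.025), both with the nonspecific siRNA. With nonspecific DHT replicate 1 left out, SRSF4 (adjusted p = 0.061), SRSF9 (0.11) and SRSF3 (0.077) were no longer called there. The same held without nonspecific vehicle replicate 3 (0.058, 0.091 and 0.16), and for SRSF3 also without nonspecific DHT replicate 2 (0.11). Upper-quartile scaling ended both calls of SRSF4 (0.057 and 0.0503) and that of SRSF9 (0.17), whose exons share 1729 bases with GATC on the opposite strand.

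SRSF1, the best studied member, stood at 163, 163 and 165 CPM in nonspecific vehicle and at 149 to 173 CPM in the other 9 libraries, with log2 differences between -0.01 and 0.03 in the 4 comparisons. SRSF5 varied most between libraries of a group among the better expressed SR genes, at 90.8, 127 and 159 CPM in nonspecific DHT. SRSF2, with log2 differences of -0.12, -0.14, 0.14 and 0.12, did not pass the test in any of the 4 comparisons. With the replicate number as a block, which fits the shared deviations of same-numbered libraries, SRSF6 (-0.17, adjusted p = 0.020) and SRSF8 (0.13, adjusted p = 0.045) were also called with DHT under the nonspecific siRNA. In the same fit SRSF5 was called lower with the paxillin siRNA in vehicle (-0.25, adjusted p = 0.032).

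Among the 21 hnRNP genes, DHT raised 3 and lowered 2 with the nonspecific siRNA and raised 4 and lowered 1 with the paxillin siRNA. HNRNPF, which binds G-rich runs near exons, rose under both. It lies at chr10:43385617-43409166 and stood at 406, 388 and 401 CPM in nonspecific vehicle, 500, 483 and 479 in nonspecific DHT, 431, 415 and 406 in paxillin vehicle and 524, 516 and 456 in paxillin DHT. The DHT libraries lay above the vehicle libraries in both arms, with log2 changes of 0.29 (SE 0.06, adjusted p = 0.0014) and 0.26 (SE 0.06, adjusted p = 0.0037). HNRNPAB rose from 82.8, 84.3 and 82.6 CPM to 110, 97.1 and 104 CPM with the nonspecific siRNA (0.31, adjusted p = 0.00055). With the paxillin siRNA it rose from 93.4, 91.3 and 96.5 to 115, 103 and 104 CPM (0.20, adjusted p = 0.017). That second call was lost without paxillin vehicle replicate 1 (adjusted p = 0.058) or 2 (0.092), without paxillin DHT replicate 1 (0.10), and under upper-quartile scaling (0.16).

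HNRNPA3 rose by 0.20 with the nonspecific siRNA (adjusted p = 0.032), and HNRNPM and HNRNPH2 rose by 0.20 each with the paxillin siRNA (adjusted p = 0.013 and 0.012). These 3 calls were lost under upper-quartile scaling (0.17, 0.14 and 0.14). HNRNPM was not called without paxillin vehicle replicate 1 (0.062), nor HNRNPH2 without that library (0.068) or paxillin DHT replicate 2 (0.074). HNRNPA3 was not called without nonspecific vehicle replicate 1 or 2 or any 1 of the 3 nonspecific DHT libraries (0.057 to 0.15). HNRNPLL, a regulator known from CD45 splicing in lymphocytes, fell by 0.18 with the nonspecific siRNA (adjusted p = 0.038). It kept its call in 4 of the 12 fits that left out 1 library, those without nonspecific vehicle replicate 1, paxillin vehicle replicate 3 or paxillin DHT replicate 1 or 3. HNRNPA1L2, a copy of HNRNPA1 lacking introns, had 31, 23 and 37 counts in paxillin vehicle and 7, 20 and 9 in paxillin DHT (-1.25, SE 0.38, adjusted p = 0.016). Its ratio of summed counts was 0.414 (95% interval 0.273 to 0.615), and the call was lost without paxillin vehicle replicate 3 (0.069), paxillin DHT replicate 1 (0.092) or paxillin DHT replicate 3 (0.054). Reads of such near-identical copies may be split by the counting, so HNRNPA1, HNRNPA1L2, HNRNPA3, HNRNPH1 and HNRNPH2 are uncertain.

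HNRNPH3 gave the largest siRNA difference among the well expressed members. It encodes a member of the hnRNP H and F family, lies at chr10:68331174-68343191 and shares 115 exon bases with RUFY2 on the opposite strand. Its level was 70.8, 77.2 and 78.9 CPM in nonspecific vehicle and 70.8, 70.5 and 77.6 in nonspecific DHT. It was 53.3, 53.0 and 50.9 CPM in paxillin vehicle and 49.9, 47.8 and 46.5 in paxillin DHT, so that all 6 paxillin libraries lay below all 6 nonspecific ones. It fell by 30.9% with the paxillin siRNA in vehicle (log2 change -0.53, SE 0.06, edgeR adjusted p = 2.9e-05) and fell by 34.1% in DHT (-0.60, SE 0.06, adjusted p = 2.1e-05), and both calls held without any 1 library. Its log2 differences with DHT were -0.06 (adjusted p = 0.51) and -0.12 (adjusted p = 0.13).

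HNRNPH1, a near relative, had its highest levels in nonspecific vehicle, at 240, 235 and 231 CPM. It stood at 181, 202 and 214 CPM in nonspecific DHT, 206, 194 and 200 in paxillin vehicle and 189, 193 and 197 in paxillin DHT. It fell with DHT under the nonspecific siRNA (-0.24, SE 0.06, adjusted p = 0.0054) and with the paxillin siRNA in vehicle (-0.23, SE 0.06, adjusted p = 0.014), 2 comparisons that share the nonspecific vehicle libraries. The second call was lost without paxillin vehicle replicate 2 (adjusted p = 0.075). HNRNPH2 and HNRNPF differed with the paxillin siRNA in vehicle by -0.08 (adjusted p = 0.39) and 0.07 (adjusted p = 0.51).

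HNRNPU, a nuclear matrix protein that binds chromatin and RNA, was the 1 member raised by the paxillin siRNA in vehicle. It went from 403, 395 and 396 CPM to 447, 445 and 477 CPM (0.20, SE 0.06, adjusted p = 0.035). The call was lost without replicate 2 or 3 of either vehicle group (0.055 to 0.13). Its exons share 3502 bases with COX20 on the opposite strand. HNRNPUL2 fell by 0.24 in vehicle (adjusted p = 0.040), a call kept in 5 of the 12 fits, those lacking replicate 1 of nonspecific vehicle, 1 or 2 of nonspecific DHT, or 1 or 3 of paxillin DHT. Its exons share 2391 bases with the readthrough gene HNRNPUL2-BSCL2. In DHT the paxillin siRNA lowered HNRNPA1, a widely acting splicing repressor, from 729, 637 and 598 CPM to 590, 538 and 463 CPM (-0.30, SE 0.09, adjusted p = 0.032). That call was lost without nonspecific DHT replicate 1 or 2 or paxillin DHT replicate 2 or 3 (0.069 to 0.15). With the replicate block HNRNPU and, with the paxillin siRNA, HNRNPA3 were also called up for DHT (adjusted p = 0.046 and 0.018). In that fit the paxillin siRNA also gave calls for HNRNPA3 and HNRNPAB up (0.018 and 0.028) and HNRNPA1 down (0.049) in vehicle, and for HNRNPM up in DHT (0.027).

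The 9 SF3A and SF3B genes held 3 members raised by DHT with the nonspecific siRNA and 2 with the paxillin siRNA, and none lowered. SF3B2, a subunit beside the branch point, lies at chr11:66050729-66069308 and shares 263 exon bases with AP006287.2 on the opposite strand. It stood at 366, 357 and 380 CPM in nonspecific vehicle, 458, 446 and 453 in nonspecific DHT, 344, 355 and 356 in paxillin vehicle and 459, 443 and 401 in paxillin DHT. The groups did not overlap in either arm, and the log2 change was 0.30 in both (SE 0.06, adjusted p = 0.00081 and 0.0007). SF3B5, at chr6:144094881-144095573, rose from 109, 95.5 and 94.4 CPM to 121, 131 and 122 (0.33, SE 0.07, adjusted p = 0.00083). In the paxillin arm it rose from 101, 106 and 98.1 to 123, 126 and 112 CPM (0.24, SE 0.07, adjusted p = 0.0082), a call lost under upper-quartile scaling (0.072). SF3B6, which contacts the branch adenosine, rose from 58.3, 58.4 and 59.0 to 72.8, 66.8 and 69.6 CPM with the nonspecific siRNA (0.25, adjusted p = 0.0035). It differed by 0.15 with the paxillin siRNA (adjusted p = 0.059, and 0.034 with the replicate block).

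SF3B1, the scaffold of SF3B and the subunit most often mutated in myeloid neoplasia, was highest in nonspecific vehicle. Its level was 310, 320 and 302 CPM there, 282, 288 and 277 in nonspecific DHT, 278, 278 and 268 in paxillin vehicle and 278, 283 and 279 in paxillin DHT. The paxillin siRNA lowered it in vehicle (-0.18, SE 0.05, adjusted p = 0.028), a call lost without nonspecific vehicle replicate 2 or any 1 of the 3 paxillin vehicle libraries (0.054 to 0.12). Its difference with DHT under the nonspecific siRNA was -0.14 (adjusted p = 0.054, and 0.029 with the replicate block). The block also called SF3B3 lower with DHT under the nonspecific siRNA (-0.13, adjusted p = 0.044) and SF3B4 lower with the paxillin siRNA in DHT (-0.17, adjusted p = 0.037).

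Of the 16 RBM genes with a splicing role, DHT raised 2 and lowered 3 with the nonspecific siRNA and raised 2 and lowered 0 with the paxillin siRNA. RBM24, a regulator best known from heart and skeletal muscle splicing, had the largest DHT fold among members of at least 20 CPM. It lies at chr6:17281346-17293875 with no exon shared with another annotated gene. Its level was 28.3, 23.1 and 25.1 CPM in nonspecific vehicle and 73.1, 59.8 and 61.9 in nonspecific DHT, and 27.9, 26.7 and 23.4 in paxillin vehicle and 65.4, 63.5 and 56.6 in paxillin DHT. The 6 DHT libraries lay above the 6 vehicle libraries, and the rise was 2.57-fold (log2 change 1.36, SE 0.10, adjusted p = 2.8e-09) and 2.38-fold (1.25, SE 0.09, adjusted p = 5.7e-09). The paxillin siRNA differences were 0.04 in vehicle and -0.07 in DHT, neither past the test.

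RBM5 and RBM39 were lowered by DHT with the nonspecific siRNA. RBM39, a coactivator-like factor that associates with U2AF, lies at chr20:35701347-35742312. Its level was 239, 227 and 226 CPM in nonspecific vehicle, 175, 182 and 189 in nonspecific DHT, 203, 182 and 183 in paxillin vehicle and 186, 183 and 187 in paxillin DHT. The nonspecific vehicle libraries thus lay above the other 9 libraries, which overlapped one another. DHT lowered RBM39 with the nonspecific siRNA (-0.34, SE 0.06, adjusted p = 0.00017), and the difference with the paxillin siRNA was -0.03 (adjusted p = 0.74). The paxillin siRNA lowered it in vehicle (-0.28, SE 0.06, adjusted p = 0.0026) and the difference in DHT was 0.03 (adjusted p = 0.81). Both calls held without any 1 library, and they share the nonspecific vehicle libraries.

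RBM5, a regulator of apoptosis gene splicing at chr3:50088908-50119021, stood at 116, 101 and 97.3 CPM in nonspecific vehicle and 78.0, 72.4 and 81.1 in nonspecific DHT. It stood at 90.1, 83.7 and 95.3 in paxillin vehicle and 83.3, 75.9 and 86.5 in paxillin DHT. It fell with DHT under the nonspecific siRNA (-0.44, SE 0.08, adjusted p = 0.00018), and the difference under the paxillin siRNA was -0.13 (adjusted p = 0.19). The paxillin siRNA call in vehicle (-0.22, adjusted p = 0.048) held in 1 of the 12 fits without 1 library, that without nonspecific vehicle replicate 3, and under 2 of the 7 other settings, with an adjusted p up to 0.22. RBM6, its neighbour on the chromosome, fell with the paxillin siRNA in vehicle (-0.24, SE 0.06, adjusted p = 0.012), a call lost without nonspecific vehicle replicate 1 (0.057) or paxillin vehicle replicate 2 (0.075). RBM5 and RBM6 share 456 exon bases on the same strand, and RBM5 a further 1007 bases with RBM5-AS1 on the opposite strand.

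The remaining calls in this role were smaller or rested on fewer counts. RBM23, a paralog of RBM39, fell by 0.17 with DHT under the nonspecific siRNA (adjusted p = 0.018), a call lost without nonspecific DHT replicate 3 (0.076). RBM8A, the exon junction complex subunit Y14, rose by 0.23 (adjusted p = 0.044), with overlapping groups. The call was lost without nonspecific vehicle replicate 1 (adjusted p = 0.21), nonspecific DHT replicate 2 or 3 (both 0.13) or paxillin vehicle replicate 2 (0.055), and under upper-quartile scaling (0.17). RBM20, which controls titin splicing in heart, had 8, 10 and 12 counts in paxillin vehicle and 22, 15 and 27 in paxillin DHT (1.15, SE 0.40, adjusted p = 0.029). Its ratio of summed counts was 2.23 (95% interval 1.43 to 3.57), and the call was lost when paxillin DHT replicate 1 or 3 or paxillin vehicle replicate 1 or 2 was left out (0.052 to 0.14) and with DESeq2 (0.061). RBM41, a minor spliceosome protein, fell by 0.25 with the paxillin siRNA in vehicle (adjusted p = 0.047) and kept its call in 1 of the 12 fits, that without nonspecific vehicle replicate 1, and under 2 of the 7 other settings. RBM4 rose with the paxillin siRNA in DHT, from 4.88, 6.36 and 7.20 CPM to 8.0, 8.30 and 11.1 CPM (0.56, SE 0.17, adjusted p = 0.037). The call was lost when 1 of paxillin vehicle replicate 2, nonspecific DHT replicates 1 and 2 and paxillin DHT replicates 2 and 3 was left out (up to 0.19). RBM4 shares 1595 exon bases with the readthrough gene RBM14-RBM4 and 590 with RBM4B.

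With the replicate block, RBM8A, RBM25 and RBM41 were also called up for DHT with the paxillin siRNA (adjusted p = 0.025, 0.038 and 0.045), and RBM48 was called down with the paxillin siRNA in vehicle (-0.34, adjusted p = 0.029). RBM10 and RBM42, the highest genes of this role in RPKM though not in CPM, passed the test in none of the 4 comparisons.

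Among the 17 other RBM genes, DHT raised 5 and lowered 2 with the nonspecific siRNA and raised 5 and lowered 1 with the paxillin siRNA. RBM12, RBM15B, RBM33 and RBM47 rose under both. RBM12 lies at chr20:35648925-35664956 and shares 575 exon bases with CPNE1 on the same strand. It stood at 85.2, 94.3 and 90.5 CPM in nonspecific vehicle, 101, 115 and 113 in nonspecific DHT, 80.8, 90.6 and 88.0 in paxillin vehicle and 106, 115 and 109 in paxillin DHT. The groups did not overlap in either arm, with changes of 0.28 (SE 0.07, adjusted p = 0.0026) and 0.35 (SE 0.07, adjusted p = 0.00047). RBM47, an RNA-binding protein of epithelial tissues and a cofactor of APOBEC1, rose from 115, 111 and 114 to 142, 136 and 131 CPM (0.27, adjusted p = 0.0014). In the paxillin arm it rose from 115, 119 and 106 to 137, 135 and 129 CPM (0.23, adjusted p = 0.0046), a call lost under upper-quartile scaling (0.055).

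RBM15B, a paralog of RBM15 in the m6A methyltransferase complex, rose by 0.20 (adjusted p = 0.012) and 0.26 (adjusted p = 0.0026), and RBM33 by 0.24 (adjusted p = 0.010) and 0.29 (adjusted p = 0.0025). With the nonspecific siRNA both calls were lost without nonspecific DHT replicate 1 (0.061 and 0.072) and under upper-quartile scaling (0.085 and 0.057), and that of RBM15B also without nonspecific vehicle replicate 3 (0.053). RBM15B shares 1325 exon bases with DCAF1 on the opposite strand. RBM19, a ribosome biogenesis factor, rose from 27.1, 24.5 and 27.1 to 35.7, 35.1 and 33.3 CPM with the nonspecific siRNA (0.40, SE 0.09, adjusted p = 0.0013). With the paxillin siRNA its difference was 0.20 (adjusted p = 0.079, and 0.043 with the replicate block). RBM38, a p53 target that stabilises messenger RNAs, had a call with the paxillin siRNA (0.21, adjusted p = 0.045) that held in 3 of the 12 fits without 1 library, those without nonspecific vehicle replicate 2 or nonspecific DHT replicate 1 or nonspecific DHT replicate 3, and under 3 of the 7 other settings.

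RBM7, the RNA-binding subunit of the nuclear exosome targeting complex, was the 1 member lowered by DHT under both siRNAs. It went from 12.5, 11.6 and 12.1 to 9.98, 9.54 and 7.76 CPM (-0.41, SE 0.13, adjusted p = 0.016) and from 15.8, 14.2 and 12.1 to 11.8, 12.0 and 9.67 CPM (-0.33, SE 0.12, adjusted p = 0.037). The first call was lost without nonspecific DHT replicate 3 (0.095), and the second without paxillin DHT replicate 3 (0.14) or with paxillin vehicle replicate 1 or 2 left out (0.16 and 0.081). RBM45 was lower than nonspecific vehicle both with DHT (-0.37, adjusted p = 0.030) and with the paxillin siRNA (-0.38, adjusted p = 0.042). These comparisons share the vehicle libraries. The first call was lost without nonspecific vehicle replicate 2 or 3 or nonspecific DHT replicate 1 or 2 (0.060 to 0.17). The second was kept in 5 of the 12 fits, those lacking replicate 1 of nonspecific vehicle, or 1 or 3 of either DHT group. With the replicate block RBM28 was also called up for DHT under both siRNAs (adjusted p = 0.025 and 0.028) and RBM3 down with the paxillin siRNA in both treatments (0.023 and 0.028). The same fit called RBM12B down with DHT under the nonspecific siRNA (0.014) and with the paxillin siRNA in vehicle (0.036), and RBM7 up with the paxillin siRNA in DHT (0.037).

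The DHT comparisons under the 2 siRNAs share no library. Across them, 12 members rose in both (ESRP2, HNRNPAB, HNRNPF, RBM12, RBM15B, RBM24, RBM33, RBM47, SF3B2, SF3B5, SRSF4 and SRSF12), 1 fell in both and 46 passed in neither. These are 15.6%, 1.30% and 59.7% of the members, beside 16.0%, 13.0% and 50.5% of all tested genes. A further 5 rose with the nonspecific siRNA alone past the test, 5 with the paxillin siRNA alone, 7 fell with the nonspecific siRNA alone and 1 with the paxillin siRNA alone, and 0 were called in opposite directions. These 1-arm counts are 6.49%, 6.49%, 9.09% and 1.30% of the members, beside 5.60%, 4.05%, 5.94% and 4.93% of all tested genes. Passing in 1 arm alone does not show a difference between arms, which the interaction below tests. Of the 12, ESRP2, HNRNPF, RBM12, RBM24 and SF3B2 were called in both arms under all 7 other settings at the same threshold and in the 12 fits that left out 1 library.

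**Figure D4:**
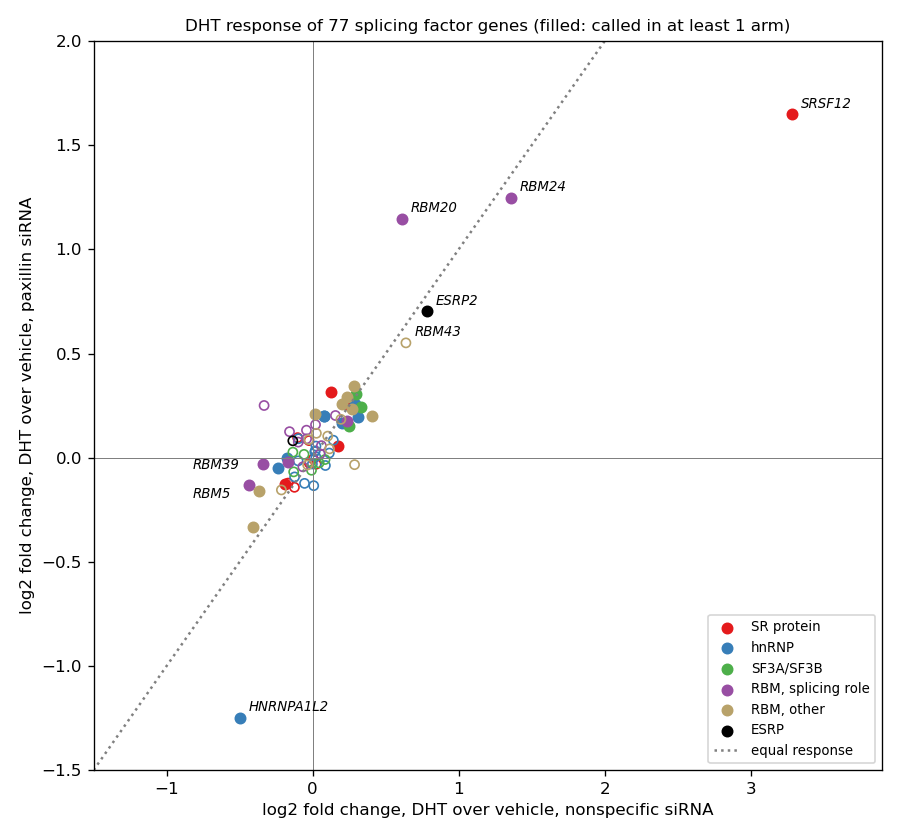
Log2 fold change with DHT of the 77 splicing factor genes under the nonspecific (x axis) and the paxillin siRNA (y axis), coloured by role, filled where called in at least 1 arm, with a dotted line of equal response (the axes have different scales). RBM24 and ESRP2 lie near the line, and SRSF12, RBM20, RBM43 and HNRNPA1L2, which stand apart from the main cluster, have low counts.

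With the paxillin siRNA in vehicle, 1 member rose and 11 fell, that is 1.30% and 14.3%, beside 10.7% and 9.78% of all tested genes (20.5% in either direction). In DHT 1 rose and 3 fell, 1.30% and 3.9%, beside 6.34% and 7% of all tested genes (13.3%). Of the 66 members at 20 CPM or more, 1 rose and 9 fell in vehicle, where 14.6% and 12.9% of tested genes at that level did (27.5% in either direction), and 0 rose and 3 fell in DHT, where 7.73% and 8.31% did (16%). The members' median log2 change was -0.03 in vehicle and -0.02 in DHT, against -0.01 and 0.00 over all tested genes. The groups did not overlap in 4 members higher and 20 lower in vehicle, beside 18.1% and 17.7% of all tested genes, and in 8 higher and 10 lower in DHT, beside 16.1% and 16%. HNRNPH3 and ESRP2 fell in both treatments. The count of 11 in vehicle went to 3 without paxillin vehicle replicate 2, to 5 without paxillin vehicle replicate 3, to 6 without nonspecific vehicle replicate 2 or paxillin vehicle replicate 1, and to 7 without paxillin DHT replicate 2. The 3 that fell in DHT became 5 without paxillin DHT replicate 1, and HNRNPU and RBM4, the 1 riser in each treatment, were lost as given above. ESRP1, HNRNPH3 and RBM39 were called in all of the fits that left out 1 library. With the replicate block the counts were 3 up and 16 down in vehicle and 3 up and 5 down in DHT. In that fit 14.8% and 13.5% of all tested genes were called up and down in vehicle, and 10.4% and 11.2% in DHT.

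**Figure D5:**
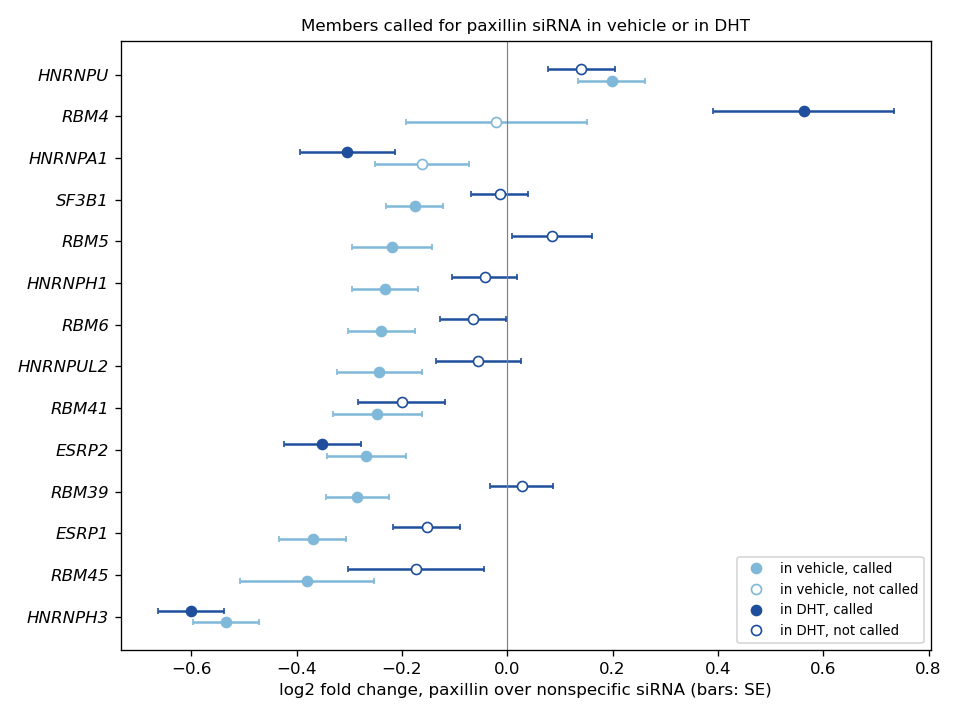
Log2 fold change of paxillin over nonspecific siRNA, with SE bars, for the 14 members called in vehicle (light blue) or in DHT (dark blue), with filled points where called. HNRNPH3 and ESRP2 are called lower in both treatments, and RBM39, RBM5, HNRNPH1 and SF3B1 are called lower in vehicle and lie within 0.1 of 0 in DHT.

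The interaction asks whether the DHT response differed between the siRNAs. In edgeR 0 of 77 members passed, beside 0.0496% of all tested genes, and 0 of the 66 members at 20 CPM or more, beside 0.0803% of tested genes at that level (0.0669% up and 0.0134% down). An unadjusted p under 0.05 was found for 7 members, which is 9.09% of them, beside 8.9% of all tested genes, so the members' count was near the background. These were RBM39 (interaction log2 value 0.31, SE 0.08, adjusted p = 0.30), RBM5 (0.30, SE 0.11, adjusted p = 0.44), ESRP1 (0.22, SE 0.09, adjusted p = 0.50), RBM4, SRSF8, HNRNPH1 and SF3B1. DESeq2 called 1 member, RBM39, with an adjusted p of 0.048, and limma-voom and the replicate block called 0. Over all genes DESeq2 called 29 up and 23 down for the interaction, more than the 6 and 2 of edgeR. The block called 0.261% of all tested genes up and 0.341% down. The interaction of SRSF12, with a fitted value of -1.64, had an edgeR adjusted p of 0.62.

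Other genes of the splicing machinery give the setting. With DHT, 21.6% of all tested genes rose and 18.9% fell under the nonspecific siRNA, and 20.1% and 17.9% under the paxillin siRNA. At 20 CPM or more the shares were 34.5% and 16.8%, and 31.7% and 15.1%. The paxillin siRNA raised 10.7% of all tested genes and lowered 9.78% in vehicle, and 6.34% and 7% in DHT. The counts of the lists stand beside these shares. Of 24 proteins of the U1 and U2 particles and the Sm core, 7 rose and 0 fell with DHT under the nonspecific siRNA, and 3 rose and 0 fell under the paxillin siRNA. SNRPA1, the U2 protein A', went from a mean of 32.9 to 51.6 CPM (0.63, adjusted p = 1.8e-05) and from 37.9 to 49.1 CPM (0.37, adjusted p = 0.0023). SNRPD1, an Sm protein, differed by 0.44 (adjusted p = 0.0016) and 0.24 (adjusted p = 0.063). LUC7L2 differed by 0.09 (adjusted p = 0.52) and 0.27 (0.041), and the second call was lost without paxillin vehicle replicate 2 (0.18), among others. U2AF1, a core factor, is listed at means of 0.37 to 0.70 CPM, beside 268 to 322 CPM for U2AF2. Whether the counting lost reads of U2AF1 was not tested, so its level is uncertain. Of 26 tri-snRNP, Prp19 complex and helicase genes, 3 rose and 2 fell, and 4 rose and 1 fell. CRNKL1 rose by 0.39 and 0.49 (adjusted p = 4.8e-05 and 3.0e-06), and SNRNP40 by 0.27 and 0.34 (0.0031 and 0.00044). PRPF31 rose by 0.35 with the nonspecific siRNA (adjusted p = 0.0012) and differed by 0.12 with the paxillin siRNA (0.24). PRPF3 fell by 0.36 with the nonspecific siRNA (adjusted p = 0.00042), and PRPF4 by 0.33 with the paxillin siRNA (0.00083). SNRNP200 fell by 0.18 with the nonspecific siRNA (0.016), a call lost without nonspecific DHT replicate 2 or 3 (0.070 and 0.067). The paxillin siRNA lowered 2 and 5 genes of these lists in vehicle and 2 and 1 in DHT, and raised 0 and 1 in vehicle and 0 and 0 in DHT.

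Among 18 SR-related proteins and SR protein kinases, 4 rose and 5 fell with DHT under the nonspecific siRNA, and 5 rose and 0 fell under the paxillin siRNA. SRPK1, the kinase that phosphorylates SR proteins in the cytoplasm, went from a mean of 83.0 to 125 CPM (0.59, adjusted p = 1.4e-07) and from 86.6 to 126 CPM (0.54, adjusted p = 3.2e-07). THRAP3 rose by 0.35 and 0.40 (adjusted p = 0.00024 and 6.2e-05). CLK4, a nuclear SR protein kinase, and BCLAF1 fell under the nonspecific siRNA by 0.55 and 0.30 (adjusted p = 0.0012 and 0.022), and their differences under the paxillin siRNA were -0.09 and -0.21 (adjusted p = 0.56 and 0.11). The BCLAF1 call was lost without nonspecific vehicle replicate 2 (0.14) or 3 (0.12) and without nonspecific DHT replicate 1 (0.098) or 2 (0.053). Of 28 tested other regulators, 7 rose and 8 fell, and 6 rose and 5 fell. CELF1 and SYNCRIP rose under both siRNAs (0.28 and 0.30 for CELF1, 0.27 and 0.33 for SYNCRIP), whereas KHDRBS3 fell by 1.41 in each arm and NOVA1, a neuronal splicing regulator, by 0.90 in each. PCBP1 rose by 0.27 with the nonspecific siRNA (adjusted p = 0.0010) and differed by 0.10 with the paxillin siRNA (0.19). The CELF1 call with the nonspecific siRNA was lost without nonspecific vehicle replicate 3 (0.056), without nonspecific DHT replicate 1 (0.082) and under upper-quartile scaling (0.051), and that with the paxillin siRNA without paxillin vehicle replicate 3 (0.054). The paxillin siRNA raised 0 and 1 genes of these lists in vehicle and 1 and 0 in DHT, and lowered 1 and 2 in vehicle and 0 and 1 in DHT. In the interaction 0 genes passed in each of the 4 lists, beside 0.0496% of all tested genes.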

How the data were processed

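RNA from 12 C4-2 libraries was sequenced with a stranded polyA kit. The authors deposited whole-number counts per gene symbol. Per the submitters' processing notes, the tools were Trimmomatic 0.36, STAR 2.5.2b and featureCounts of Subread 1.5.0p3 on GRCh38. No annotation release, strand setting or siRNA sequence is given in the sources used here. Without the strand setting, reads of overlapping genes cannot be told apart, and 43 of the 77 members share exon bases with another gene in GENCODE 29, 35 of them on the opposite strand. Coordinates and exon lengths for RPKM come from that annotation.

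Tests used edgeR 4.0.16 under R 4.3.3. filterByExpr (minimum count 10, minimum total 15) kept 16115 genes, libraries were scaled by TMM, and a quasi-likelihood model of 4 group means was fitted to all 12 libraries. Calls required a Benjamini-Hochberg adjusted p under 0.05 over all tested genes. An SE is the log2 fold change over the root of F. Levels in CPM use TMM-scaled totals, where 1 count equals 0.0328 to 0.0815 CPM. The reads carry no molecular identifiers, so intervals describe counting error alone. The fit was tested on simulated counts, with 50 changed genes per fold. A 1.25-fold change was called in 14.6 to 32% of them in the 4 comparisons and in 6.12% for the interaction. At 1.5-fold the shares were 53.2 to 70.8% and 55.1%. With DHT, 6534 and 6120 of the 16115 tested genes were called under the nonspecific and paxillin siRNA, far more than were changed in the simulation. The share of members called at a given fold was not tested. A member that did not pass may still differ by a small fold. Whether replicates came from separate cultures is not stated in the labels, and the spread behind each p-value may therefore be technical.

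Replicate numbers are shared by the groups. Deviations from group means correlated at 0.18 to 0.51 in all 18 same-numbered pairs over 9283 genes (median 0.29), and at -0.45 to 0.25 in the 36 others (median -0.14), so the numbers were taken to pair the samples. The main fit left this pairing out, and the replicate block, run as an alternative, included it. With the block, DHT raised 20 members and lowered 12 under the nonspecific siRNA, beside 17 and 8 in the main fit. Under the paxillin siRNA, DHT raised 24 and lowered 2, beside 17 and 2. The paxillin siRNA raised 3 and lowered 16 in vehicle, beside 1 and 11. In DHT it raised 3 and lowered 5, beside 1 and 3. The block also called more of all tested genes. With DHT it called 24.6% up and 21.5% down under the nonspecific siRNA, and 22.9% and 20.9% under the paxillin siRNA. For the paxillin siRNA the shares were 14.8% and 13.5% in vehicle and 10.4% and 11.2% in DHT. Replicates of a group differed beyond sampling noise (chi-square per degree of freedom 6.16 to 18.6).

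The members and lists were chosen with earlier results of these data known. The rule's exclusion of symbols ending in P and digits would, read literally, drop ESRP1 and ESRP2, which it names, so both were kept. Named with values were ESRP1 and ESRP2, per role and comparison up to 3 called members with the largest rise and 3 with the largest fall, members called for the interaction, the 2 highest and 2 lowest members by level in each role, and per other list up to 2 rising and 2 falling genes per DHT comparison. SRSF2, SRSF5, RBM38, U2AF1 and the genes gained with the block or near the interaction threshold were named after their values were seen. The alternatives tried were scaling by RLE or by the upper quartile, testing with DESeq2 1.42.0 or limma-voom (limma 3.58.1), no low-count filter, a replicate block, fitting the 2 compared groups, a threshold of 0.01, members with at least 1200 counts, leaving out each library, and, added after seeing the data, the literal rule.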

Additional observations from a re-analysis of the deposited data

How the results depend on the processing

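No called member changed direction under the settings run. Upper-quartile scaling gave 11 members up and 16 down for DHT with the nonspecific siRNA, 10 up and 9 down with the paxillin siRNA, and 2 up with the paxillin siRNA in vehicle; it kept 19 of the 25 and 12 of the 19 DHT calls. An adjusted p under 0.01 left 11 up and 3 down, 11 up and 0 down, 0 up and 3 down in vehicle, and 0 up in DHT. Without the filter on low counts 5 fell with DHT under the nonspecific siRNA, and the paxillin siRNA in vehicle gave 2 up and 7 down. Members with at least 1200 counts, and the compared groups alone, each gave 1 down for DHT with the paxillin siRNA. DESeq2 gave 2 up for the paxillin siRNA in each treatment and 1 for the interaction. The replicate block gave 3 up for the paxillin siRNA in each treatment and 5 down in DHT; it lost no call and gained 7, 7, 7 and 4 in the DHT and siRNA comparisons in the order above. Leaving out 1 library gave 12 to 18 up and 5 to 9 down for DHT with the nonspecific siRNA, 12 to 18 and 0 to 2 with the paxillin siRNA, 0 to 2 up and 3 to 9 down for the paxillin siRNA in vehicle, 0 to 1 up and 2 to 5 down in DHT, and 0 for the interaction. Under all of the settings at the 0.05 threshold, 14 of 25, 8 of 19, 3 of 12 and 2 of 4 calls held. The cause of these shifts was not tested. Members with few counts (SRSF12, RBM20, HNRNPA1L2 and RBM43) have wide intervals, so their folds are limited by depth.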
